A study of Mus musculus with 8 samples.

Results

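The 10 genes described here encode the collagen chains of perichondrium and other fibrous tissue: Col1a1, Col1a2, Col3a1, Col5a1, Col5a2, Col6a1, Col6a2, Col6a3, Col12a1 and Col14a1. They were chosen by name, with every probe set that the platform annotation maps to 1 of these symbols and no other. This gave 10 of 18193 genes with such a probe set, and 23 of the 45101 probe sets on the array. The signal filter of 110 was passed by 21 of the 23, at least 1 for each gene, and the other two belong to Col12a1. Each gene is given by its brightest probe set unless another is named.

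RNA came from rib chondrocytes of FVB mouse embryos at E18.5, in 4 samples labelled as wild type and 4 as Hoxc8 transgenic. The 4 litters, called litters 1 to 4 here, each gave 1 control and 1 transgenic sample. Rib cages were digested with collagenase and trypsin and the freed cells were passed through a strainer before RNA extraction. The sources used here do not give the promoter driving the transgene, the number of transgenic lines, or the number and sex of embryos in a sample, so p-values measure the spread between these samples.

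A collagen molecule is a triple helix of chains rich in glycine and proline. Collagens I and III form the fibrils of bone, tendon, skin and perichondrium, and collagen V lies within those fibrils and controls their assembly and thickness. Collagen VI forms beaded filaments near the cell surface, in cartilage mainly around the chondrocyte. Collagens XII and XIV bind to the surface of fibrils. Mature chondrocytes make collagens II, IX and XI, while the perichondrium, the fibrous layer around the rib, makes collagen I.

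Promoters of 4 members of different collagen types are shown so that the sequence before genes whose signals are compared below can be set side by side. The RefSeq promoter table (build GRCm38.p6) held 6 of the 10 genes; Col1a1, Col5a2, Col12a1 and Col14a1 were not among them. The 120 bases before the start of transcription are given 5′ to 3′ on the strand of the gene. Capitals mark the letters of the CCAAT box (CCAAT), the TATA box (TATAAA) and the GC box (GGGCGG), searched on both strands wherever they lie in the window.
Col1a2, chr6:4505498-4505617, plus strand: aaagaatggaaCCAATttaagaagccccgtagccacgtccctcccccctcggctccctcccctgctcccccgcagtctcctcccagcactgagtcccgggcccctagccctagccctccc
Col3a1, chr1:45311418-45311537, plus strand: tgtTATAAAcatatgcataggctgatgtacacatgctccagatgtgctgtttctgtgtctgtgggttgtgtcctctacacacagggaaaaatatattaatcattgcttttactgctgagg
Col5a1, chr2:27886305-27886424, plus strand: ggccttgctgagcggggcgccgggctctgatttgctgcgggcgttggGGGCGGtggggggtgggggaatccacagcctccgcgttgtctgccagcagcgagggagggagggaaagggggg
Col6a1, chr10:76726045-76726164, minus strand: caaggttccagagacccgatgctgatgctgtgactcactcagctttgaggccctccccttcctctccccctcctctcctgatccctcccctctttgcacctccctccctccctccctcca
CCAAT was found before Col1a2, TATAAA before Col3a1, and GGGCGG before Col5a1 and in 1 of the 2 entries of Col6a2. None of these letters was found before Col6a1 or Col6a3. TATAAA of Col3a1 lay near the end of the window farthest from the start of transcription. Over 32851 windows of the same length, CCAAT was found in 21.3%, TATAAA in 6.34% and GGGCGG in 26.5%. G and C made up 72.5% of the window of Col5a1 and 65.8% of that of Col1a2, against a median of 54.2%. A match describes letters and not a bound site. In RefSeq's gene order, Col3a1 and Col5a2 are neighbours, and so are Col6a1 and Col6a2, with 0 protein-coding genes between them.

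Hoxc8, the gene carried by the transgene, gave signals of 4112, 3066, 3755 and 3143 in control samples of litters 1 to 4 and 4096, 3400.0, 3810.4 and 4235 in transgenic samples. The groups overlapped (difference 0.15 log2, SE 0.12, exact two-sided permutation p = 0.229, the smallest possible being 0.0286), so Hoxc8 did not check the genotype labels. All 8 chondrocyte markers passed the signal filter, with Acan, the core protein of the main cartilage proteoglycan, between 21014 and 32666. Markers of other cells passed it as well, 9 of 10 for fibroblasts and perichondrium and 4 of 5 for tendon. So did 8 of 8 for skeletal muscle, 5 of 5 for endothelium and 3 of 5 for macrophages. Of 6 erythroid markers, 3 had a probe set mapped to that symbol alone and 2 passed. Over all genes with such a probe set, 10989 of 18193 passed. Of 8 osteoblast markers the 6 with such a probe set passed, Bglap and Runx2 having none of that kind. In bulk samples of this kind, fewer cells of a type and less RNA per cell cannot be told apart.

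Signals of collagens I and III overlapped between the genotypes, and litter 4 was the low one for collagen I. Col1a1, whose chain is the more abundant of those in collagen I, gave 20507, 20227, 26476 and 18032 in control samples of litters 1 to 4 and 23619, 18874, 23454 and 13936 in transgenic samples. Col1a2, the partner chain, gave 37468, 40415, 37004 and 28696 in control and 36588, 35816, 35383 and 29464 in transgenic samples. For both chains litter 4 was the lowest in each genotype. The highest and lowest litter means of Col1a1 differed by 1.57-fold (limma F-test, adjusted p = 0.0201), with litter 3 at the top. Those of Col1a2 differed by 1.31-fold (adjusted p = 0.0351), with litter 2 at the top.

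Col3a1, the single chain of collagen III, gave 37852, 39134, 38546 and 40194 in control and 38435, 36803, 38618 and 32474 in transgenic samples. These were nearly level apart from the transgenic sample of litter 4, and the litters were not called different (1.07-fold, limma adjusted p = 0.843). The dimmer probe set of Col3a1 gave 7442, 5256, 11111 and 7139 in control and 7683, 6519.6, 9126 and 6127 in transgenic samples. There litter 3 was the highest in each genotype and the litters were called different (1.72-fold, adjusted p = 0.0132). Neither probe set was called between genotypes, with differences of -0.093 and -0.037 log2.

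The dimmer probe set of Col1a1 ran against the brighter one. It gave 5504, 5677, 4935 and 7808 in control and 7691, 6663, 6093 and 6700.2 in transgenic samples. Litter 3 was the lowest in each genotype and litter 4 had the highest mean, although the litters were not called different (1.32-fold, limma adjusted p = 0.228). Its genotype difference was 0.20 log2 (SE 0.14), against -0.11 (SE 0.16) on the brighter probe set, neither of them called. Of the other probe sets of Col1a2, the middle one was called between litters (adjusted p = 0.034) and the dimmest was not (adjusted p = 0.484).

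**Figure D1:**
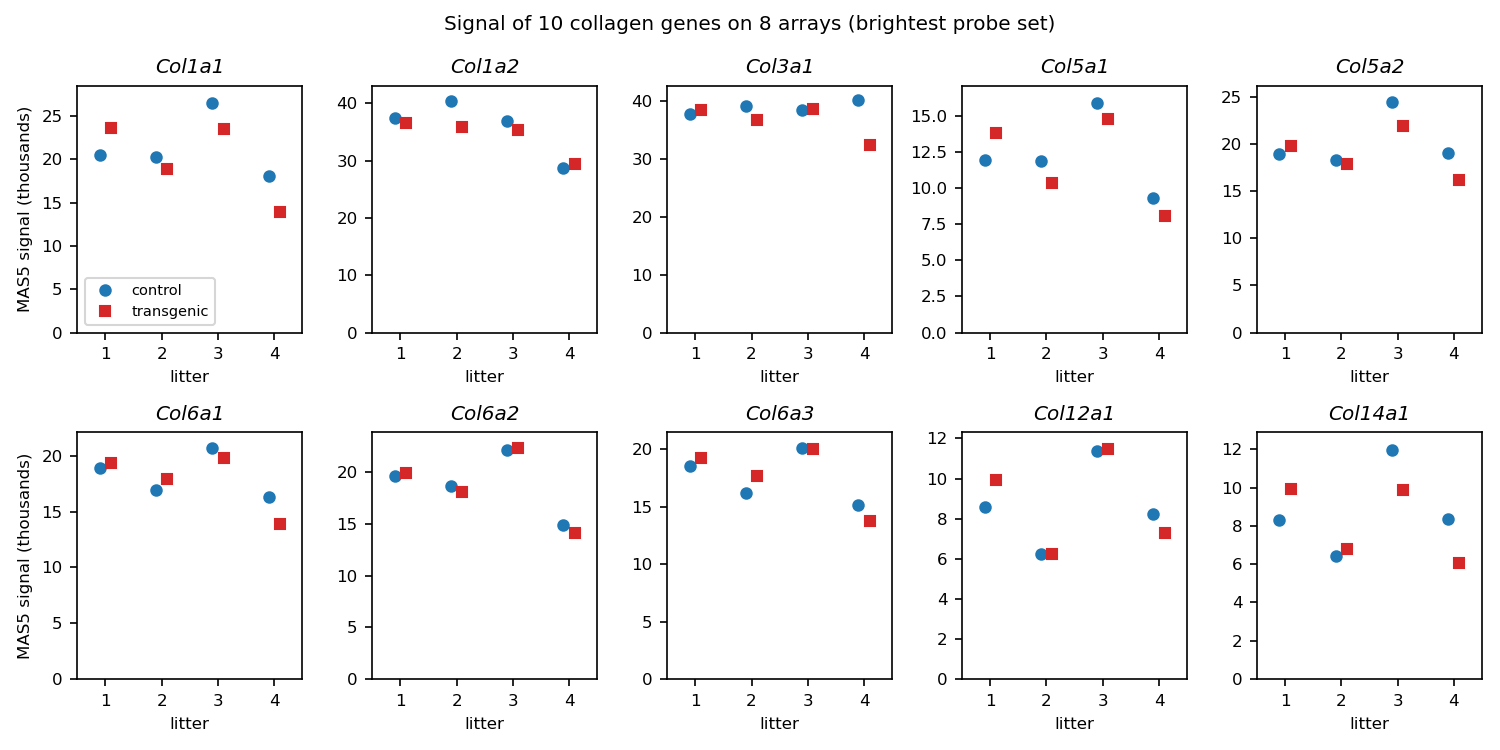
MAS5 signal (linear axis from 0, scaled as marked) of the brightest probe set of each of the 10 collagen genes, by litter, 1 point per array (circles, control; squares, transgenic). Litter 3 is high for most genes, litter 4 is low for Col1a1, Col1a2, Col5a1 and the chains of collagen VI, and Col3a1 is nearly level.

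Chains of collagen V differed between litters while the genotypes overlapped. Col5a1, a chain of nearly every collagen V molecule, gave 11911, 11854, 15839.7 and 9283 in control and 13804, 10347, 14733 and 8058 in transgenic samples. Litter 3 was the highest and litter 4 the lowest in each genotype (1.76-fold, limma F-test, adjusted p = 0.00446). The other probe sets of Col5a1 gave 1.88-fold and 2.32-fold (adjusted p = 0.00474 and 0.00154). Col5a2, the partner chain, gave 18873, 18327, 24458 and 18970.3 in control and 19722, 17907, 21837 and 16158 in transgenic samples. Litter 3 was again the highest in each genotype, and the range of 1.32-fold missed the threshold (adjusted p = 0.0514). The dimmer probe set of Col5a2 passed it, at 1.93-fold (adjusted p = 0.00505).

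The chains of collagen VI, which assemble into 1 molecule, shared the order of litters 3, 1, 2 and 4. Col6a1 gave 18896, 16926, 20682 and 16292 in control and 19325, 17915, 19758 and 13872 in transgenic samples. Col6a2 gave 19617, 18716, 22176 and 14914 in control and 19906, 18129, 22298 and 14104 in transgenic samples. Col6a3, the longest of these chains, gave 18538, 16171, 20099.9 and 15140.5 in control and 19246, 17695, 20042 and 13779 in transgenic samples. For all 3 chains litter 3 was the highest and litter 4 the lowest in each genotype, and control and transgenic samples overlapped. The litter ranges were 1.34-fold, 1.53-fold and 1.39-fold (limma F-test, adjusted p = 0.0461, 0.00485 and 0.0229). Litter held 98.9% of the sum of squares of Col6a2 over the 8 arrays.

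On the brightest probe sets of the fibril-surface collagens, litter 3 had the highest mean and litter 2 the lowest. Col12a1, the chain of collagen XII, gave 8595, 6225, 11377 and 8228 in control and 9905, 6259, 11449 and 7292 in transgenic samples. Col14a1, the chain of collagen XIV, gave 8297, 6443, 11965 and 8339 in control and 9897, 6807, 9874 and 6079 in transgenic samples. Litter 2 was the lowest in each genotype for Col12a1, whereas for Col14a1 it was the lowest in the control samples and litter 4 in the transgenic ones (litter 4 minus litter 2, 0.10 log2, limma pairwise adjusted p = 0.757). The ranges were 1.83-fold and 1.64-fold (limma F-test, adjusted p = 0.00192 and 0.024). A dimmer probe set of Col12a1 and one of Col14a1 gave 2.44-fold and 2.35-fold with litter 4 the lowest. The dimmest tested probe set of Col14a1, also lowest in litter 4, had a mean signal of 193 and stood at 104 and 5.75 in the control and transgenic samples of litter 4. Both untested probe sets of Col12a1 lay far below the filter, and their group means ran opposite ways. The brighter had means of 14.2 ± 11.3 in the control (SD, 4 samples) and 53.4 ± 18.8 in the transgenic group. The dimmer had 19.7 ± 17.2 in the control and 9.65 ± 6.30 in the transgenic group.

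The comparison of genotypes asked whether these collagens differed in Hoxc8 transgenic samples, and no member was called. By limma, 0 of 10 genes and 0 of 21 probe sets passed an adjusted p of 0.05 (background 0% of probe sets and genes). An unadjusted p under 0.05 was reached by 0 members as well (background 1.09% of probe sets and 0.91% of genes). Signals of the genotypes were without overlap for 0 of 10 genes (background 0.992%). Differences on the log2(signal + offset) scale, with an offset of 22.2, ran from -0.11 for Col1a1 to 0.012 for Col12a1, with a median of -0.066 against 0.0015 over all tested genes. They were negative for 8 genes (background 49.3%) and positive for Col6a3 and Col12a1. Mean signals of Col1a1 were 21310.3 ± 3617 for the controls (SD, n = 4) and 19971 ± 4585 for the transgenics. The 95% intervals of the 10 genes lay within 0.699-fold and 1.36-fold.

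The sign of the observed transgenic minus control difference was not the same in all 4 litters. In litter 1 the transgenic sample was above the control for 9 of 10 genes (background 55.2%), with a median of 0.059 log2. In litter 4 it was below the control for 9 of 10 (background 55.3%), with a median of -0.22, from -0.45 for Col14a1 to 0.038 for Col1a2. The medians of litters 2 and 3 were -0.04 and -0.065. The same sign in all 4 litters was seen for 0 of 10 genes (background 10.7%). The transgenic sample of litter 4 was the lowest of the 8 arrays for 8 genes (background 16.8%), and the control sample of litter 3 the highest for 6 (background 14.3%). In fits without a block, the median difference over the 10 genes was 0.059 log2 without the first and 0.038 without the second. Each of these fits kept the other sample of that litter, so genotype and litter were no longer balanced. With the litter pairing as a replicate block, 0 genes were called (background 0%), 0 had an unadjusted p under 0.05 (background 3.08%), and the intervals narrowed to 0.801-fold and 1.12-fold. Each litter held 1 sample of each genotype, so whether the genotype difference varied with litter was not tested.

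**Figure D2:**
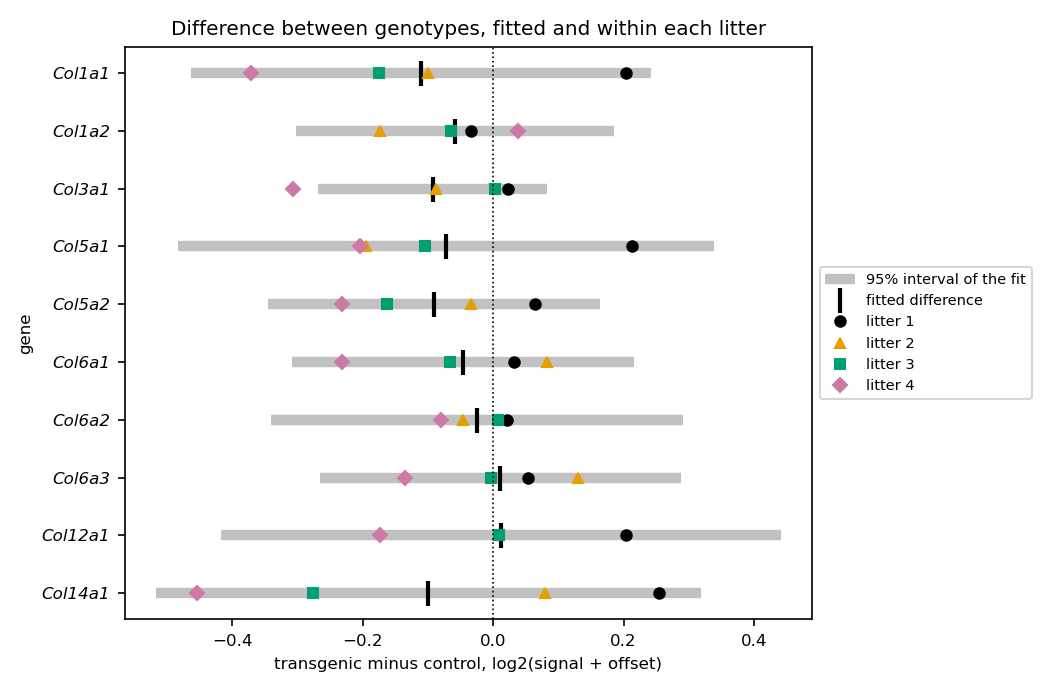
Transgenic minus control on the log2(signal + offset) scale for the 10 genes. Ticks are fitted differences, bars their 95% intervals over 8 arrays without a litter block, and symbols the differences within each litter. Every bar spans 0, with litter 4 to the left for 9 genes and litter 1 to the right for 9.

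Litters were then compared with genotype in the model. By limma's F-test 8 of 10 genes passed an adjusted p of 0.05 (background 9.91% of genes), all but Col3a1 and Col5a2, and 17 of 21 probe sets (background 9%). An unadjusted p under 0.05 was reached by 9 of 10 genes (background 29.9%). Each gene had at least 1 probe set that passed, and all tested probe sets passed for Col5a1, Col12a1, Col14a1 and the chains of collagen VI. Among the 439 tested genes at least as bright as the dimmest member, 20.5% passed. The median litter range was 0.54 log2 over the members, 0.37 over all tested genes and 0.27 over those bright ones. Litter held a median of 88.7% of the members' sum of squares and genotype 2.08%, against 65.7% and 3.72% over all tested genes. Over the 439 bright genes the median share of litter was 77.4%.

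Most members had a common order of litters. Litter 3 had the highest mean for 9 of 10 genes (background 25.8%) and was the highest in each genotype for 6 (background 11.6%), namely Col5a1, Col5a2, Col12a1 and the chains of collagen VI. Litter 4 had the lowest mean for 8 genes (background 29%) and litter 2 for Col12a1 and Col14a1. The full order 3, 1, 2, 4 was found for 7 genes (background 6.37%). In pairwise contrasts with limma, adjusted over all probe sets and pairs, litter 4 was below litter 3 for 8 genes (background 4.05%), below litter 1 for 5 (3.16%) and below litter 2 for 2 (6.38%). Litter 3 was above litter 2 for 3 (4.84%), and litter 2 was below litter 1 for Col12a1 alone (1.16%). Litters 3 and 1 were not called different for any of the 10 genes (0.919%), with a median of 0.17 log2 between them. The backgrounds of these contrasts are shares of all tested probe sets, not genes, called in either direction.

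The calls between litters depended on the variance model and on single samples. Without the intensity trend of limma's model, 0 of the 10 genes and 0 of all probe sets passed, and 6 of the 10 had an unadjusted p under 0.05. Without the filter on dim signals 3 passed, namely Col5a1, Col6a2 and Col12a1, and the calls over all probe sets went from 2027 to 995. Leaving out the control sample of litter 1, 2 or 3 gave 6, 4 and 3 calls in place of 8, beside 2109, 546 and 786 over all probe sets. Leaving out the transgenic sample of litter 1, 2, 3 or 4 gave 6, 5, 3 and 4, beside 1931, 713, 970 and 1519. Leaving out litter 2, 3 or 4 as a whole gave 6, 3 and 2, beside 562, 1046 and 1118. Col12a1 kept its call under each of these leave-outs, while Col5a1 and Col6a2 lost theirs only without litter 4 (adjusted p = 0.051 and 0.146). Col5a2 gained a call without the control sample of litter 4 or without litter 1 (adjusted p = 0.04 and 0.0293), and Col1a2 also lost its call without the control sample of litter 4 (adjusted p = 0.213).

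**Figure D3:**
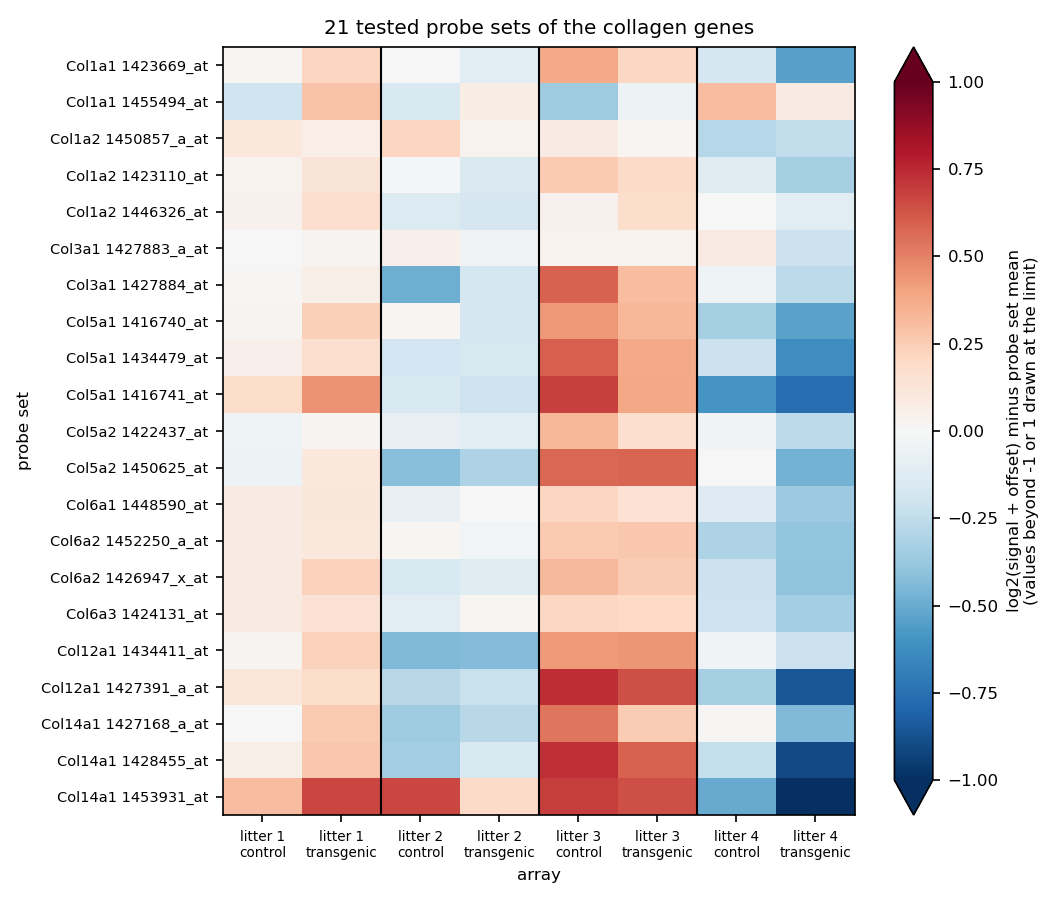
Log2(signal + offset) minus the probe set's mean, for the 21 tested probe sets of the 10 genes (rows) on the 8 arrays (columns, by litter and genotype). Red is above and blue below the mean, drawn at the limit beyond -1 or 1. Litter 3 is red and litter 4 mostly blue, except for the dimmer probe set of Col1a1, which runs the other way.

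Probe sets of a gene shared the top litter more often than the size of the range. Litter 3 had the highest mean for 19 of 21 probe sets, the exceptions being the dimmer one of Col1a1 and the brightest of Col1a2. Of 8 genes with more than 1 tested probe set, 5 had the smallest range on the brightest, namely Col3a1, Col5a1, Col5a2, Col12a1 and Col14a1. For Col3a1 it was 0.095 log2 on the brightest and 0.78 on the other.

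The 5′ to 3′ ratios of the control probe sets, a sign of RNA integrity, moved with the litters too. For Gapdh the ratio was 1.35 in the control and 1.36 in the transgenic sample of litter 3, and 1.17 in the control and 1.14 in the transgenic sample of litter 4. For beta-actin it was 0.641 in the control and 0.647 in the transgenic sample of litter 3, and 0.512 in the control and 0.475 in the transgenic sample of litter 4. Litter 3 was the highest and litter 4 the lowest for both ratios in each genotype, as for Col5a1 and the chains of collagen VI. The part of RNA integrity in the collagen differences was not tested. Whether litters were dissected, digested and labelled separately is not stated, and such steps cannot be told apart from the litter.

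Markers of several cell types differed between litters. Of 9 tested markers of fibroblasts and perichondrium, litter 3 had the highest mean for 8 (background 25.8%) and litter 2 the lowest for 6. The litters were called different for 3 of the 9 (background 9.91%), Fap, Prrx1 and Pdgfra, a protease, a homeobox gene and a growth factor receptor of mesenchymal cells (limma F-test, adjusted p = 0.00822, 0.0233 and 0.0427). The summed signal of the list was 15711, 12902, 21589.6 and 18125 in control and 16532, 14171, 19041 and 15269 in transgenic samples. Litter 2 was the lowest in each genotype, as it was on the brightest probe set of Col12a1, and litter 4 was not. On that probe set litters 4 and 2 were not called different (0.31 log2, limma pairwise adjusted p = 0.121). Tendon markers, of which Scx was below the filter, summed to between 9912 and 17293, and 0 of 4 were called by limma between litters. For 4 of 4 tendon markers litter 3 had the highest mean (background 25.8%) and litter 2 the lowest. Their median range was 0.73 log2. Osteoblast markers summed to between 1713 and 2686, and 0 of 6 were called. Skeletal muscle markers were called for 4 of 8, with Acta1 and Ckm highest in litter 1 and Tnnt3 and Tnni2 highest in litter 4 (adjusted p = 0.00727, 0.00188, 0.00356 and 0.000445), and their sum lay between 22750.0 and 31873. Of 8 chondrocyte markers Acan and Sox9, the transcription factor that specifies cartilage, were called, both with litter 2 the highest and litter 4 the lowest (adjusted p = 0.0111 and 0.00101). Endothelial markers had their lowest mean in litter 4 for 5 of 5 (background 29%) and summed to between 771 and 1322, with 0 called. Of 3 tested macrophage markers 0 were called, and of 2 tested erythroid markers Alas2 was (adjusted p = 0.00557), highest in litter 1. The part of cell composition in the collagen differences was not tested.

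The collagens of cartilage itself had another top litter. Litter 2 had the highest mean for 8 of 8 (background 24.5%), and for 6 of 8 after quantile normalization. It was the highest in each genotype for 7 of the 8 cartilage collagens and for 0 of the 10 fibrous ones (background 11.7%). Col27a1, Col11a2, Col9a2 and Col10a1, the collagen of hypertrophic chondrocytes, were called between litters, 4 of 8 against a background of 9.91% (limma F-test, adjusted p = 0.00473, 0.00628, 0.0131 and 0.0194), each with litter 4 the lowest. Between genotypes 0 of 8 were called, with Col9a2 at 0.27, Col2a1 at -0.18 and Col9a1 at -0.064 log2.

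**Figure D4:**
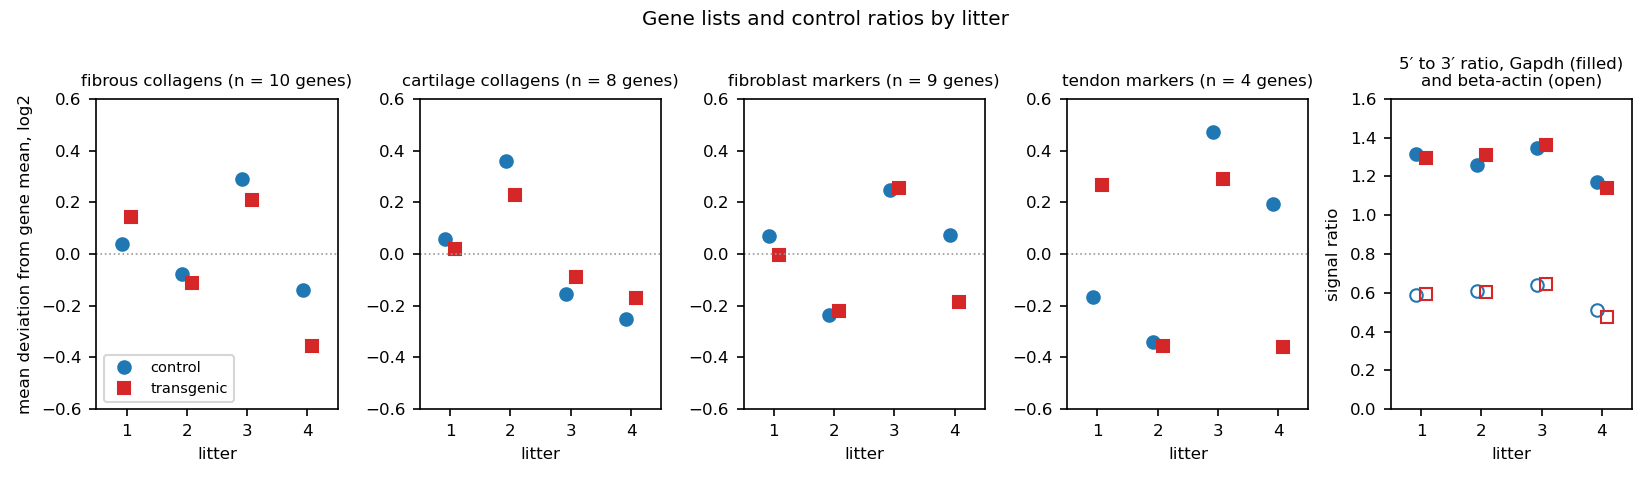
Mean deviation from each gene's mean, in log2, on each array by litter (circles, control; squares, transgenic) for the 10 fibrous collagens, 8 cartilage collagens, 9 fibroblast markers and 4 tendon markers, and 5′ to 3′ ratios of Gapdh (filled) and beta-actin (open). Fibrous collagens and both marker lists are highest in litter 3, cartilage collagens in litter 2, and both ratios are lowest in litter 4.

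Genes that act with collagens were counted from fixed lists, and 0 of them were called between genotypes by limma. The counts called between litters below stand beside the background of 9.91% of tested genes. Among 5 tested other chains, Col16a1 and Col20a1 were called between litters (adjusted p = 0.0069 for the first, and just under the threshold for the second), with litter 1 the highest for Col16a1 and litter 4 for Col20a1. Among 14 tested genes of folding, processing and crosslinking, 4 were called. These were Pcolce, an enhancer of procollagen cleavage, and Lox, a crosslinking enzyme, both highest in litter 3, P4ha2, a prolyl hydroxylase subunit, highest in litter 2, and Plod3, a lysyl hydroxylase, highest in litter 1. Serpinh1, the procollagen chaperone, had a range of 0.094 log2 and was not called (adjusted p = 0.79). Between genotypes, Lox stood at -0.20 log2 (SE 0.22), Bmp1, a procollagen C-proteinase, at 0.14 (SE 0.11) and P3h1, a prolyl hydroxylase, at 0.10 (SE 0.13).

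Among 15 tested proteins on or between fibrils, 4 were called between litters, and litter 3 had the highest mean for 9 (background 25.8%). Tnc, the tenascin of tendon and perichondrium, gave 3589.6, 2937, 6972 and 4283 in control and 3915, 2683, 5954 and 3248 in transgenic samples. As for Col12a1, litter 3 was the highest in each genotype (range 1.19 log2, limma adjusted p = 0.000935). Tgfbi, Ogn and Thbs2 were the others called, with ranges of 0.65, 0.52 and 0.93 log2. Dcn and Lum, proteoglycans that bind collagen fibrils, were not called (adjusted p = 0.358 and 0.779). Between genotypes Tnxb stood at 0.24, Aspn at 0.20 and Tnc at -0.16 log2. Of 8 tested collagen receptors 3 were called between litters, Cspg4 and Antxr1, which bind collagen VI, with litter 3 the highest, and Ddr1, a receptor kinase, with litter 2 the highest (adjusted p = 0.00351, 0.0245 and 0.00382). Itgb1, the beta 1 integrin, stood at -0.17 log2 between genotypes.

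The genes nearest to the mean profile of the 10 collagens over the 8 arrays were Aida, Heca, Pxdn, Kirrel and Lpp. The root mean square distance of centred log2 values ran from 0.054 to 0.061 for these 5, against a median of 0.270 over 10979 tested genes outside the set. Among the members it ran from 0.057 for Col6a1 to 0.207 for Col12a1. Each of the 5 had litter 3 as the highest and litter 4 as the lowest, as has the profile by which they were picked. Their order of litters is therefore not a separate result. Lpp, the fifth, gave 4805, 4298, 5405 and 3701 in control and 4890.2, 3933, 5357 and 3528 in transgenic samples.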

How the data were processed

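Values are MAS5 signals, intensity on a linear scale, as the authors deposited them, with 1 Affymetrix array for each of 8 samples; MAS5 is named in the submitters' processing notes. Trimmed means of the arrays were equal, so a common scaling had been applied before deposit. The number of arrays limits precision.

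Signals were analysed as log2(signal + 22.2), the offset being a low percentile of the values, which understates differences of dim probe sets. Affymetrix control probe sets (64) were dropped, and 22519 probe sets at or above the median mean signal were tested. limma 3.58.1 (R 4.3.3; lmFit, then eBayes with intensity trend) compared genotypes over 8 arrays without a block and litters by its F-test with genotype as a term, two-sided, with Benjamini-Hochberg adjustment over all tested probe sets. The fits were tested on simulated data with seeded changes and no other litter effects. Litter differences like those in these samples were thus not part of that test of the genotype fit.

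Named genes are the members, up to 3 per list by genotype difference and by litter p, and the 5 nearest profiles. Col10a1, Plod3, Thbs2, Serpinh1, Dcn, Lum and the marker genes were named after their values were seen. Members and lists were chosen with earlier results of these data known. Replicate numbers pair samples because the labels tie them to litters. The deviations of paired arrays had correlations of 0.0251, 0.434, 0.376 and 0.379 in litters 1 to 4. The highest correlation of each control array with a transgenic array of another litter was 0.063, 0.0133, 0.0303 and 0.00416. In litter 1 the paired value was thus not the highest. Alternatives were the replicate block, other offsets, filters, scalings and variance models, the mean of a gene's probe sets, and leaving out arrays or litters. Pairwise litter contrasts were added after seeing the data.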

Additional observations from a re-analysis of the deposited data

Results flagged for a closer look

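For each of the 21 tested probe sets and each genotype, the gap between an extreme sample and its neighbour was divided by the spread of the 4 samples, which made 42 groups. By Dixon's 95% critical value 2 samples stood apart, where chance gives about 2.1. Col5a2 was 24457.5 in the control sample of litter 3, with the next at 18970.3. Col1a2 was 29463.9 in the transgenic sample of litter 4, with the next at 35383.4.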

How the results depend on the processing

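Under every alternative run, 0 members and 0 probe sets were called between genotypes by limma, and the replicate block changed no call. Probe sets with an unadjusted p under 0.05 rose from 246 to 752 with the block. The fitted differences of 9 genes changed sign under some setting. Col6a3 stood at -0.015 log2 after quantile normalization, and with the mean of a gene's probe sets Col1a1 and Col12a1 stood at 0.044 and -0.056. Leaving out arrays or litters gave -0.22 to 0.052 for Col1a1, -0.16 to 0.013 for Col1a2, -0.20 to 0.094 for Col5a1, -0.16 to 0.0052 for Col5a2, -0.10 to 0.067 for Col6a1, -0.13 to 0.10 for Col6a2, -0.055 to 0.13 for Col6a3, -0.13 to 0.16 for Col12a1 and -0.24 to 0.062 for Col14a1, and -0.13 to 0.059 for the median of the 10. In these fits without a block, leaving out a single array left its litter in a single genotype. Between litters, 8 members and 2027 probe sets were called. Without the intensity trend these were 0 and 0, without a filter 3 and 995, and leaving out arrays or litters gave 2 to 9 members and 546 to 3047 probe sets. Other offsets and scalings, the stricter filter, robust fitting and the fit without a genotype term gave 8 or 9 members, the mean of a gene's probe sets 7. After quantile normalization litter 3 was the highest for 10 members and litter 4 the lowest for 6. The cause was not tested.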
